A study of Mus musculus with 21 samples.

Results

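The 6 genes described here are Arc, the Homer genes Homer1, Homer2 and Homer3, and the Polo-like kinase genes Plk2 and Plk3. They were taken by symbol from a table of read counts over whole genes that holds 24984 genes, and all 6 passed the filter on low counts together with the rest of the 16959 genes tested. They were chosen by name, as postsynaptic effectors of synaptic down-scaling and their paralogues, with earlier results of these data known. Newly made RNA was measured by BrU-seq, in which living cells build bromouridine into the RNA they are transcribing and the labelled RNA is then isolated and sequenced.

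All libraries came from primary cortical cultures of CD1 mice at day 17 in vitro, given 2 mM bromouridine over the final 30 min. Cultures first received DMSO, the solvent, or 25 µM MM401, an inhibitor of the binding of the histone methyltransferase MLL1 to WDR5, for 30 min. The DMSO groups then received sterile water for 4 h, 40 µM bicuculline-methiodide for 1 h, or bicuculline-methiodide for 4 h. The MM401 groups received water for 1 h, water for 4 h, bicuculline-methiodide for 1 h, or bicuculline-methiodide for 4 h. Bicuculline is an antagonist of the GABA-A receptor, which lifts inhibition of the network. Each of the 7 groups had 3 libraries, described as biological replicates of mixed sex. Whether a replicate was a separate dissection is not given in the sources used here, so p-values measure the spread between these libraries. Water for 1 h after DMSO was not analysed here.

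When network activity stays high, cortical neurons weaken their excitatory synapses, a process known as synaptic down-scaling. Arc joins the endocytic machinery that removes AMPA receptors from the membrane. Homer proteins crosslink metabotropic glutamate receptors, Shank scaffolds and inositol trisphosphate receptors, and the short activity-induced product of Homer1, Homer1a, breaks those links. Plk2, also called SNK, phosphorylates SPAR (gene Sipa1l1) and other regulators of Ras and Rap and so favours the loss of synapses, and Plk3 is its close relative.

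On mouse build mm10, Arc lies on the minus strand at chr15:74669080-74672570 and spans 3.5 kb. Homer1 lies on the plus strand at chr13:93303756-93405129 (101.4 kb), Homer2 on the minus strand at chr7:81600480-81706925 (106.4 kb) and Homer3 on the plus strand at chr8:70282998-70294361 (11.4 kb). Plk2 lies on the plus strand at chr13:110395043-110400843 (5.8 kb) and Plk3 on the minus strand at chr4:117128654-117133963 (5.3 kb). Positions are as deposited, and in 5 of the 6 genes the start is 1 base before the RefSeq start. Counts cover introns and exons alike, so Homer1a cannot be separated from full-length Homer1. Use of strand in counting is not given in the sources used here. Homer3 overlaps Ddx49 on the other strand by 1497 bases and Plk3 overlaps Tctex1d4 on the other strand by 77 bases, and RefSeq places the predicted genes Gm44570 and Gm51279 inside Homer2, so the counts of these 3 members are uncertain to that extent.

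The promoters of Homer1 and Plk2 are shown beside those of their paralogues Homer2 and Plk3, since the ratio within each pair changed with bicuculline. Each window runs from 250 bases before to 50 after a RefSeq start on GRCm38.p6 and is written 5′ to 3′ on the gene's strand. Capitals mark the cyclic AMP response element (CRE) TGACGTCA or its shorter core TGACG, on either strand. The windows are chr13:93303507-93303806 (plus strand) for Homer1, chr7:81706876-81707175 (minus) for Homer2, chr13:110394794-110395093 (plus) for Plk2 and chr4:117133914-117134213 (minus) for Plk3.
Homer1: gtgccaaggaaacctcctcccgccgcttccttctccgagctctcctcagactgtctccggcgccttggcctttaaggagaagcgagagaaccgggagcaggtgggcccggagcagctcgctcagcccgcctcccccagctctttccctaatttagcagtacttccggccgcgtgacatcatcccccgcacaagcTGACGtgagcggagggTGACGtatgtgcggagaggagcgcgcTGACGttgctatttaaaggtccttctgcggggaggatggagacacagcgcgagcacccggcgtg
Homer2: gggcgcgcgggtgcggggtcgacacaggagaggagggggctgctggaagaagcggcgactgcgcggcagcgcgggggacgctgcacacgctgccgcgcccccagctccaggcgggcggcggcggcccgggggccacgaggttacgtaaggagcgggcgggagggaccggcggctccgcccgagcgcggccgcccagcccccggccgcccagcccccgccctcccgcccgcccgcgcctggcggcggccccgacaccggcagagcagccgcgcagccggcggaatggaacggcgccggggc
Plk2: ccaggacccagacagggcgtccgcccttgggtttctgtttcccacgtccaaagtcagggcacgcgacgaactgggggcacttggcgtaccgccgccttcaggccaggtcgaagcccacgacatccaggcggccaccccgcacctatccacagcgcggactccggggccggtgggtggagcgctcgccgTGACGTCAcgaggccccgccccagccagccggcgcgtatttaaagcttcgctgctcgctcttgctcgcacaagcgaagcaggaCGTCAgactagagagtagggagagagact
Plk3: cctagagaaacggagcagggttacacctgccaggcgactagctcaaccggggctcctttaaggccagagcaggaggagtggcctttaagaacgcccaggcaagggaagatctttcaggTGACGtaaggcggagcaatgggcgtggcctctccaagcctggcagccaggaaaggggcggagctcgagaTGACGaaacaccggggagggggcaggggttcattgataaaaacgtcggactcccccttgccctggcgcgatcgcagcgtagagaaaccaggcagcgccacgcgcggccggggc

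Homer1 held 3 matches to the core, beginning 56, 40 and 14 bases before the start. Plk2 held the full CRE, beginning 62 bases before the start, which contains 2 of its 3 core matches because the element reads the same on both strands. The other core match in Plk2 began 21 bases after the start. In Plk3 the core was matched 132 and 63 bases before the start. Neither the Homer2 nor the Homer3 window held the core, and a second RefSeq start of Homer1 and one of Homer2 held none either. The AP-1 motif TGANTCA, the EGR motif GCGTGGGCG and the CArG box, searched on both strands, had 0 matches in the 7 windows of the 5 members with an entry. Among all 32851 promoter windows of this length, 1.79% held the full CRE, 20.8% held the core, 1.03% held at least 3 cores, 7.81% held the AP-1 motif, 0.612% the EGR motif and 1.63% the CArG box. These are matches of letters in a window, and binding of a factor was not measured.

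The 20 libraries analysed held 49886348 to 87939384 counts. The third MM401 library in water at 4 h held 316741 counts, which is 0.503% of the median of the others, and was left out, so that group had 2 libraries. Libraries of the same group differed by more than sampling noise in all 19 pairs, with a chi-square per degree of freedom of 6.17 to 78.5. Levels below are CPM, a gene's counts per 1000000 counts of the TMM-scaled library total, and a member was called at an adjusted p-value under 0.05. Scaling to plain library totals moved the median log2 change of all genes by bicuculline from -0.04 to -0.23 at 1 h and from -0.02 to -0.30 at 4 h in DMSO, and from 0.00 to -0.21 at 1 h in MM401. The calls over all genes then split into 1836 higher and 6818 lower, 1820 and 7867, and 1276 and 6541, against 3396 and 4161, 4014 and 4330, and 3070 and 3699 with TMM. The split at 4 h in MM401 went from 3898 higher and 3674 lower to 2794 and 4138. Between 4 h and 1 h of bicuculline it went from 3233 and 2572 to 2015 and 3131 in DMSO, and from 2974 and 2717 to 3603 and 1943 in MM401.

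Neuronal markers were present, as the labelled cell type requires. The sums below are CPM of plain library totals. The 5 markers of excitatory neurons summed to 745 to 829 CPM in DMSO water at 4 h, 813 to 862 CPM after 1 h of bicuculline and 957 to 1022 CPM after 4 h. Under MM401 they summed to 759 to 775 CPM and 819 to 845 CPM in water at 1 h and 4 h, and to 791 to 887 CPM and 949 to 1022 CPM in bicuculline. The excitatory sum after 4 h of bicuculline was thus above that in water and that at 1 h, without overlap, in both pretreatments. Of the 5 markers of inhibitory neurons Dlx1 was listed at 0 in every library, and the list summed to 486 to 554 CPM in water and 671 to 796 CPM in bicuculline, without overlap.

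The sum of the astrocyte markers was 708 to 771 CPM after 1 h and 523 to 600.0 CPM after 4 h of bicuculline in DMSO, and 696 to 840.1 CPM and 546 to 665 CPM under MM401. In water they summed to 452 to 770.4 CPM in DMSO at 4 h, and to 541 to 768 CPM and 429.7 to 529 CPM under MM401 at 1 h and 4 h. Microglial markers summed to 20.9 to 37.1 CPM in all, and under MM401 at 4 h to 23.9 to 26.7 CPM in water and 30.5 to 37.1 CPM in bicuculline. Markers of the oligodendrocyte lineage summed to 139.8 to 188 CPM and endothelial markers to 1.50 to 2.93 CPM. The part of these lists in the results below was not tested. In such bulk cultures fewer cells of a type and less RNA per cell cannot be told apart.

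Levels were also divided by gene length, and whether this measures transcription alike in short and long genes was not tested. Per kilobase of gene, Plk2 had the highest level of the members in DMSO cultures in water, at a mean of 16.6 CPM per kb. Homer1 followed at 4.67 and Arc at 3.01 CPM per kb. Homer2, Plk3 and Homer3 were far lower, at 0.488, 0.468 and 0.230 CPM per kb. Homer2 and Plk3 overlapped across libraries. After 1 h of bicuculline the means were Plk2 at 48.2, Homer1 at 22.9, Arc at 20.7, Plk3 at 0.542, Homer2 at 0.491 and Homer3 at 0.258 CPM per kb. There Homer1, at 20.1 to 26.9 CPM per kb, overlapped Arc, at 19.9 to 21.5, and Plk3, at 0.480 to 0.611, overlapped Homer2, at 0.473 to 0.507.

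**Figure D1:**
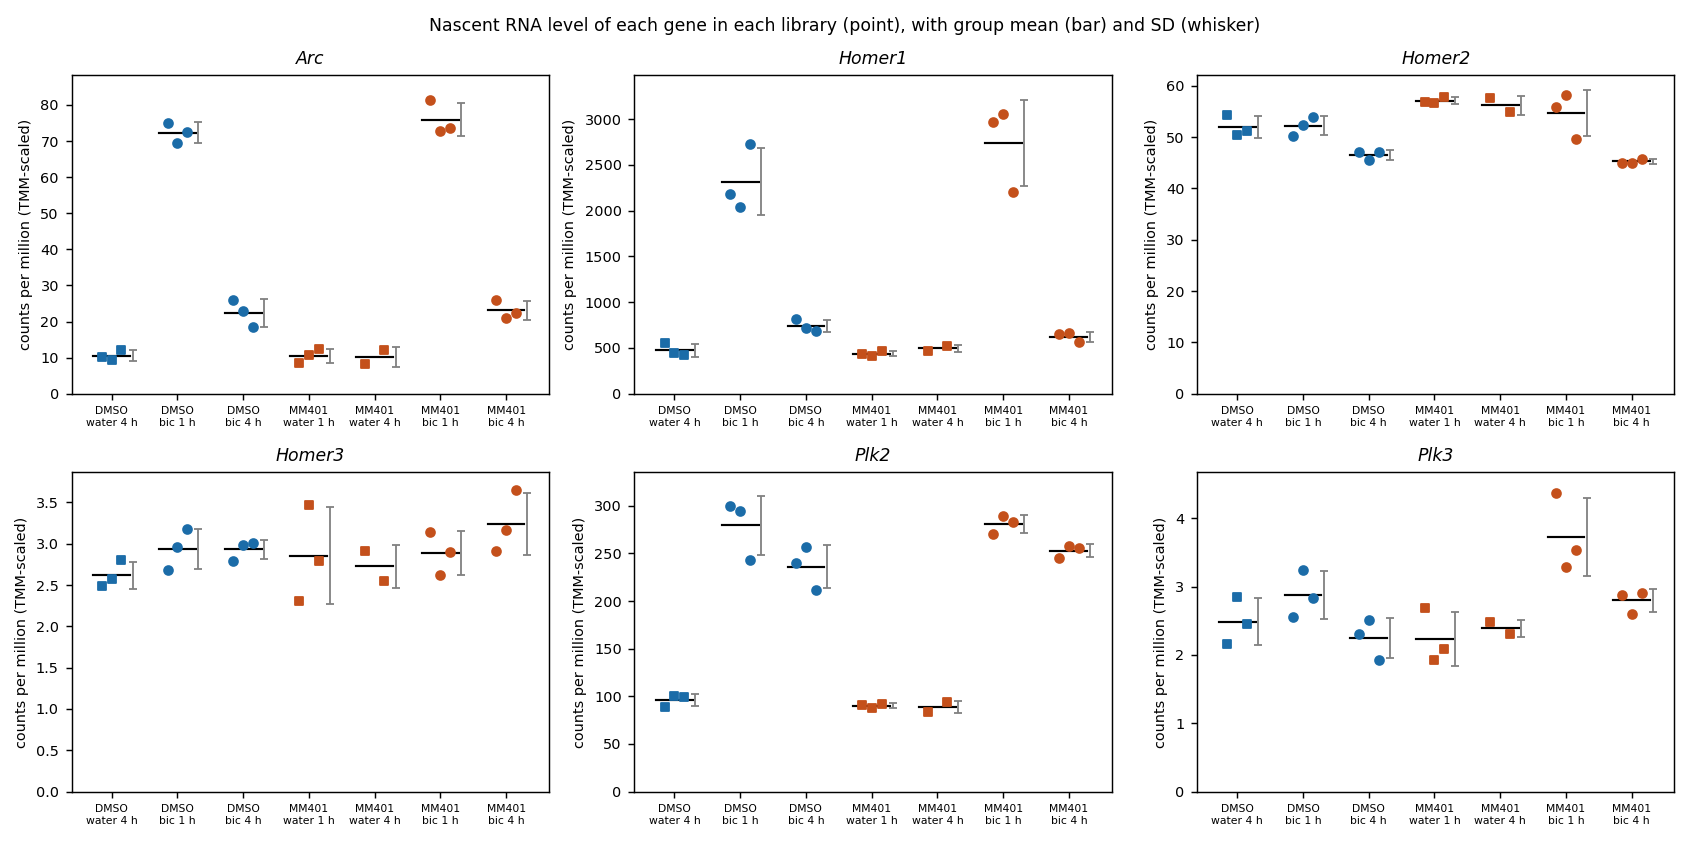
Level of each of the 6 genes in every library, in TMM-scaled CPM (vertical axis, linear, from 0), for the 7 groups (horizontal axis; bic, bicuculline). Points are libraries (blue, DMSO; orange, MM401; squares, water; circles, bicuculline), bars group means and whiskers the SD. Arc, Homer1 and Plk2 are high in both bicuculline groups at 1 h, and at 4 h Plk2 is still at 236 ± 22.9 CPM in DMSO while Arc and Homer1 are closer to water.

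In DMSO cultures, 1 h of bicuculline raised the nascent RNA of Arc 6.89-fold, of Homer1 4.89-fold and of Plk2 2.90-fold over water. Their paralogues Homer2, Homer3 and Plk3 were not called. Water was sampled at 4 h only, so time and treatment differ together in this comparison. Of the 6 members 3 were called higher and 0 lower, where 20% of all genes tested were called higher and 24.5% lower, and the median log2 change was 0.87 for the members and -0.04 for all genes.

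Arc was at 10.1, 9.23 and 12.2 CPM in the 3 water libraries and at 75.0, 69.4 and 72.6 CPM after 1 h of bicuculline. The lowest stimulated library was several times the highest water library, and the log2 change was 2.78 ± 0.16 (SE), with an adjusted p of 7.34e-10 by edgeR's quasi-likelihood test. Homer1 was at 553, 447 and 421 CPM in water and at 2188, 2036 and 2728 CPM after 1 h. Its groups did not overlap either, and its log2 change was 2.29 ± 0.13 (edgeR adjusted p = 1.62e-11). Plk2 was at 89.1, 100.2 and 99.7 CPM in water and at 300.0, 295 and 243 CPM after 1 h, again without overlap. Its log2 change was 1.54 ± 0.08 (edgeR adjusted p = 1.08e-12).

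Homer2, a long-form Homer that neurons make without stimulation, had levels of 54.3, 50.3 and 51.2 CPM in water and of 50.3, 52.5 and 53.9 CPM after 1 h. The ranges overlapped and the log2 change was 0.01, with a 95% interval of -0.11 to 0.12 (edgeR adjusted p = 0.920). With plain library totals Homer2 was instead called lower, at -0.18 ± 0.06 (edgeR adjusted p = 0.0116), where the median of all genes was -0.23. Homer3, at 2.49, 2.57 and 2.80 CPM in water and 2.68, 2.96 and 3.17 CPM after 1 h, had a log2 change of 0.16 with an interval of -0.13 to 0.45 (edgeR adjusted p = 0.364). Plk3 was at 2.16, 2.85 and 2.46 CPM in water and 2.55, 3.25 and 2.84 CPM after 1 h, with overlapping ranges. Its log2 change was 0.21 with an interval of -0.11 to 0.52 (edgeR adjusted p = 0.284). Homer3 and Plk3 rested on 117 to 270 counts a library.

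After 4 h of bicuculline in DMSO, Plk2 was still 2.45-fold above water, Arc 2.13-fold and Homer1 1.57-fold. Homer2 fell slightly. The count of members was 3 higher and 1 lower, where 23.7% of all genes were called higher and 25.5% lower, with a median log2 change of 0.40 for the members and -0.02 for all genes. This comparison and the one at 1 h share the DMSO water libraries.

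Plk2 at 4 h was at 239.6, 257 and 212 CPM, above every water library, with a log2 change of 1.29 ± 0.08 (edgeR adjusted p = 1.54e-11). Arc was at 25.9, 22.8 and 18.4 CPM, also above all water libraries, and its log2 change was 1.09 ± 0.16 (edgeR adjusted p = 2.63e-05). Homer1 was at 818, 720 and 688 CPM, with a log2 change of 0.65 ± 0.13 (edgeR adjusted p = 0.000271) and no overlap with water. Homer2 was at 47.1, 45.5 and 47.1 CPM, below each water library, and fell by 0.16 ± 0.06 on the log2 scale (edgeR adjusted p = 0.0219). The Homer2 call was lost with RLE size factors (-0.14, adjusted p = 0.0652), with DESeq2 (-0.13, 0.0683), without DMSO bicuculline 4 h library 2 (-0.14, 0.0734) and without DMSO water 4 h library 1 (-0.12, 0.0924).
Homer3 at 4 h was at 2.79, 2.99 and 3.01 CPM and Plk3 at 2.30, 2.52 and 1.93 CPM. Neither was called: the log2 change was 0.16 ± 0.14 for Homer3 (edgeR adjusted p = 0.351) and -0.16 for Plk3, with an interval of -0.48 to 0.16 (edgeR adjusted p = 0.421). With plain library totals, where the median of all genes was -0.30, Plk3 was called lower, at -0.44 (edgeR adjusted p = 0.0282), Homer1 was at 0.38 ± 0.10 (0.00211) and Homer2 at -0.43 ± 0.06 (1.59e-06).

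**Figure D2:**
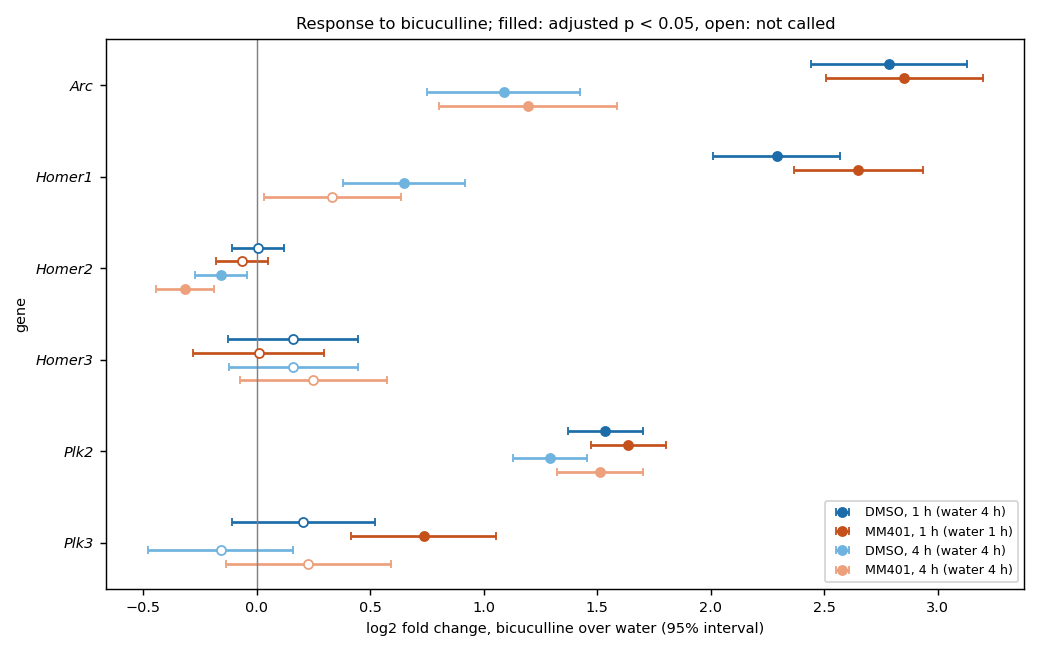
Log2 fold change of each gene by bicuculline over water (horizontal axis, with 95% intervals), at 1 h and 4 h in DMSO and MM401; the water group used is named in the key. Filled points were called at an adjusted p under 0.05. Arc, Homer1 and Plk2 lie far to the right at 1 h, from 1.54 to 2.85, while Homer2 and Homer3 lie between -0.07 and 0.16 at that time.

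Under MM401, bicuculline also raised Arc, Homer1 and Plk2 within 1 h, here against water of the same time. Plk3 rose too, 1.66-fold. Of the members 4 were called higher and 0 lower, where 18.1% of all genes were called higher and 21.8% lower, and the medians were 1.19 for the members and 0.00 for all genes.

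Arc was at 8.39, 10.8 and 12.3 CPM in water at 1 h and at 81.3, 72.8 and 73.7 CPM after bicuculline, a 7.22-fold rise with a log2 change of 2.85 ± 0.16 (edgeR adjusted p = 5.96e-10). Homer1 was at 439, 407 and 464 CPM and then at 2967, 3060.1 and 2202 CPM. Its 6.28-fold rise, a log2 change of 2.65 ± 0.14 (edgeR adjusted p = 2.07e-12), came with one stimulated library well below the other two. Plk2 went from 91.3, 87.6 and 92.1 CPM to 270.3, 289.7 and 283 CPM, 3.11-fold, with a log2 change of 1.64 ± 0.08 (edgeR adjusted p = 4.50e-13).

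Plk3 was at 2.68, 1.93 and 2.08 CPM in water and at 4.37, 3.28 and 3.53 CPM after 1 h of bicuculline, with no overlap. The log2 change was 0.74 ± 0.15 (edgeR adjusted p = 0.000558). Homer2 was at 56.8, 56.7 and 57.9 CPM in water and at 55.9, 58.3 and 49.7 CPM after bicuculline, ranges that overlap, with a log2 change of -0.07 ± 0.06 (edgeR adjusted p = 0.373). With plain library totals Homer2 was called lower, at -0.28 (edgeR adjusted p = 0.000325), where the median of all genes was -0.21. Homer3 was at 2.31, 3.47 and 2.79 CPM in water and 3.14, 2.62 and 2.90 CPM after bicuculline, with a log2 change of 0.01 ± 0.14 (edgeR adjusted p = 0.965).

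At 4 h under MM401, Plk2 was 2.85-fold and Arc 2.29-fold above water and Homer2 was lower. Homer1 was not called. The members counted 2 higher and 1 lower, where 23.0% of all genes were called higher and 21.7% lower, with medians of 0.29 for the members and 0.02 for all genes.

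Plk2 was at 83.9 and 93.5 CPM in the 2 water libraries and at 245, 258 and 256 CPM after bicuculline, with a log2 change of 1.51 ± 0.09 (edgeR adjusted p = 4.09e-11). Arc was at 8.11 and 12.1 CPM and then at 26.0, 20.9 and 22.4 CPM, with a log2 change of 1.19 ± 0.18 (edgeR adjusted p = 6.46e-05). The Homer2 levels were 57.5 and 54.9 CPM in water and 45.0, 45.0 and 45.8 CPM after bicuculline, and the gene fell by 0.31 ± 0.06 on the log2 scale (edgeR adjusted p = 0.000288). The stimulated Homer2 libraries were all below the water libraries.

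Homer1 was at 468 and 524 CPM in water and at 654, 660 and 563 CPM after 4 h of bicuculline under MM401. These libraries did not overlap, but its log2 change of 0.33, with an interval of 0.03 to 0.64, missed the threshold (edgeR adjusted p = 0.0661). It was called with the replicate number as a block (0.36, edgeR adjusted p = 0.0490), with only the groups compared in the fit (0.31, 0.00357) and without MM401 bicuculline 4 h library 3 (0.41, 0.0441).
Homer3 was at 2.91 and 2.54 CPM in water and at 2.92, 3.16 and 3.65 CPM after bicuculline, and Plk3 was at 2.48 and 2.30 CPM and then at 2.88, 2.60 and 2.91 CPM. Both had stimulated libraries above their water libraries, with log2 changes of 0.25 ± 0.16 for Homer3 (edgeR adjusted p = 0.203) and 0.23 ± 0.17 for Plk3 (edgeR adjusted p = 0.304).

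The transcription of Arc and Homer1 fell between 1 h and 4 h of bicuculline in both pretreatments. In DMSO the change from 1 h to 4 h was -1.70 ± 0.15 for Arc (edgeR adjusted p = 2.63e-07) and -1.64 ± 0.13 for Homer1 (edgeR adjusted p = 4.91e-09), on the log2 scale. That of Plk2 was -0.24 ± 0.08 (edgeR adjusted p = 0.0174) and that of Homer2 was -0.17 ± 0.06 (edgeR adjusted p = 0.0232). Of the members 0 were called higher and 4 lower, where 19.1% of all genes were called higher and 15.2% lower, and the medians were -0.30 for the members and 0.02 for all genes. Plk3 was not called, at -0.36 ± 0.15 (edgeR adjusted p = 0.0716), and neither was Homer3, at 0.00 ± 0.14 (edgeR adjusted p = 0.994).

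The Plk2 call was lost with all 21 libraries (-0.29, adjusted p = 0.303), without DMSO bicuculline 1 h library 1 (-0.19, 0.0946) or 2 (-0.20, 0.0825) and without DMSO bicuculline 4 h library 3 (-0.17, 0.123). The Homer2 call was lost without DMSO bicuculline 1 h library 2 (-0.16, 0.0570) or DMSO bicuculline 4 h library 2 (-0.15, 0.0794), so that 2 members were called without DMSO bicuculline 1 h library 2. The Plk2 change was -0.37 without DMSO bicuculline 1 h library 3, and that of Homer2 was -0.25 with plain library totals. Plk3 was called with plain library totals (-0.45, 0.0439) and without DMSO bicuculline 1 h library 1 (0.0482).

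Under MM401 the change from 1 h to 4 h was -2.13 ± 0.13 for Homer1 (edgeR adjusted p = 2.31e-10) and -1.72 ± 0.15 for Arc (edgeR adjusted p = 2.72e-07). Homer2 changed by -0.27 ± 0.06 (edgeR adjusted p = 0.000582) and Plk3 by -0.41 ± 0.15 (edgeR adjusted p = 0.0423). Plk2 was not called, at -0.15 with an interval of -0.31 to 0.01 (edgeR adjusted p = 0.142), nor was Homer3, at 0.17 ± 0.14 (edgeR adjusted p = 0.373). The members counted 0 higher and 4 lower, where 17.5% of all genes were called higher and 16.0% lower, with medians of -0.34 for the members and 0.02 for all genes. Whether Plk2 differs from Arc and Homer1 in this decline was not tested.
The Plk3 call was lost with plain library totals (-0.33, adjusted p = 0.132), without the filter on low counts (-0.40, 0.0518), with all 21 libraries (-0.43, 0.0670), without MM401 bicuculline 1 h library 1 (-0.28, 0.213) and without MM401 bicuculline 4 h library 1 (0.0733), 2 (0.127) or 3 (0.0698).

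Paralogues were compared by the ratio of their counts within each library, which needs no scaling. Homer1 rose relative to Homer2, and Plk2 relative to Plk3, at both times of bicuculline, and Homer1 rose relative to Homer3 at 1 h. Homer2 was not tested against Homer3. There were 10.2 counts of Homer1 for each count of Homer2 in the DMSO water library where the ratio was highest and 8.22 where it was lowest. After 1 h of bicuculline the ratio was 38.8 to 50.6, and after 4 h 14.6 to 17.3. Under MM401 it was 7.18 to 8.01 in water at 1 h, 44.3 to 53.0 after 1 h of bicuculline, 8.13 to 9.54 in water at 4 h and 12.3 to 14.7 after 4 h of bicuculline. None of these bicuculline ranges overlapped the water range of its comparison.

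Over both pretreatments the log2 ratio of Homer1 to Homer2 changed by 2.49 at 1 h (2.28 in DMSO and 2.71 in MM401) and by 0.73 at 4 h (0.81 and 0.65). The exact permutation test, two-sided and permuted within each pretreatment, gave p = 0.005 at both times (adjusted p = 0.006 over the 6 tests), which is the smallest p it allows. The ratio of Plk2 to Plk3 was 35.1 to 41.2 in DMSO water, 85.4 to 117 after 1 h and 102 to 109.6 after 4 h of bicuculline. Under MM401 it was 33.9 to 45.3 in water at 1 h and 61.8 to 88.0 after bicuculline, and 33.8 to 40.4 and then 84.8 to 99.0 at 4 h, with no overlap. The log2 change of Plk2 to Plk3 was 1.11 at 1 h (1.32 and 0.89) and 1.36 at 4 h (1.44 and 1.29), with exact permutation p = 0.005 at each time (adjusted p = 0.006).

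For Homer1 to Homer3 the ratio rose at 1 h by 2.37 on the log2 scale (2.13 in DMSO and 2.61 in MM401; exact permutation p = 0.005, adjusted p = 0.006). At 4 h its change of 0.29 (0.49 and 0.09) did not pass (exact permutation p = 0.105, adjusted p = 0.105). It passed without MM401 bicuculline 4 h library 3 (0.37, exact permutation adjusted p = 0.0167). With all 21 libraries it was 0.36 (exact permutation adjusted p = 0.045), but the added library holds 0 counts of Homer3, so that its ratio is set by the 0.5 added to each count.

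**Figure D3:**
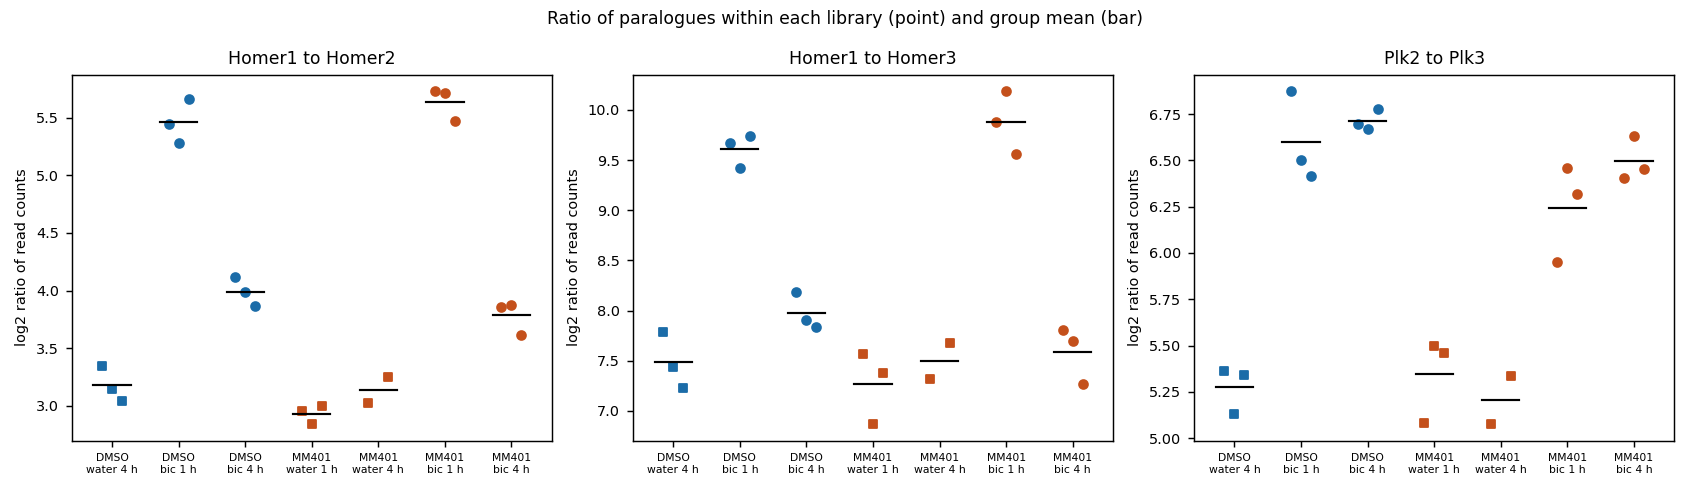
Log2 ratio of the read counts of 2 paralogues within each library (vertical axes, not starting at 0), for the 7 groups. Points are libraries and bars group means. Both Homer1 ratios and the Plk2 to Plk3 ratio are higher in every 1 h bicuculline library than in the water libraries of the same pretreatment, and the ratio of Homer1 to Homer3 overlaps between water and bicuculline at 4 h under MM401.

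MM401 was compared with DMSO to see whether blocking MLL1 and WDR5 changed these genes at rest or their response to activity. No member was called by edgeR in any of the 3 comparisons of MM401 with DMSO or in either test of the difference between responses. In water at 4 h 0 members were called, 0 at an unadjusted p under 0.05 and 0 by DESeq2, where 0.0826% of all genes were called in either direction by edgeR, 2194 genes (12.9%) had an unadjusted p under 0.05 and DESeq2 called 162. With bicuculline at 1 h 0 were called, 1 (Plk3) at an unadjusted p under 0.05 and 0 by DESeq2, where 0.0059% of all genes were called by edgeR, 540 genes (3.18%) had an unadjusted p under 0.05 and DESeq2 called 14. With bicuculline at 4 h 0 were called, again 1 (Plk3) unadjusted and 0 by DESeq2, where 0.0% of all genes were called by edgeR, 1309 genes (7.72%) had an unadjusted p under 0.05 and DESeq2 called 7. Members' medians in the 3 comparisons were 0.00, 0.07 and 0.07, beside -0.01, 0.01 and 0.00 for all genes.

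Plk3 was the member with the lowest p in stimulated cultures. After 1 h of bicuculline its 3 MM401 libraries, at 3.28 to 4.37 CPM, were above its DMSO libraries, at 2.55 to 3.25 CPM. The log2 difference was 0.36 ± 0.15, with an unadjusted p of 0.0242 and an adjusted p of 0.999 by edgeR. After 4 h, at 2.60 to 2.91 CPM against 1.93 to 2.52 CPM, it was 0.32 ± 0.15 (unadjusted p = 0.0494, edgeR adjusted p = 0.639).

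Homer1 had differences of opposite sign at the 2 times, neither of them called. At 1 h of bicuculline the MM401 libraries, at 2202 to 3060.1 CPM, overlapped the DMSO libraries, at 2036 to 2728 CPM, and the difference was 0.24, with an interval of -0.02 to 0.51 (edgeR adjusted p = 0.999). At 4 h they lay below, at 563 to 660 CPM against 688 to 818 CPM without overlap, and the difference was -0.25, with an interval of -0.51 to 0.02 (edgeR adjusted p = 0.640). For Arc the intervals were -0.24 to 0.38 at 1 h and -0.28 to 0.38 at 4 h, and for Plk2 they were -0.15 to 0.17 and -0.06 to 0.26. Homer2 differed by 0.06 at 1 h, with an interval of -0.05 to 0.18, and by -0.04 at 4 h, with an interval of -0.16 to 0.07. The Homer3 intervals were -0.31 to 0.26 and -0.14 to 0.43.

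At rest the differences between MM401 and DMSO in water at 4 h spanned -0.12 for Plk2 (interval -0.30 to 0.06) up to 0.12 for Homer2 (interval -0.01 to 0.24). Homer2 was at 57.5 and 54.9 CPM under MM401 and at 54.3, 50.3 and 51.2 CPM in DMSO, which did not overlap (edgeR adjusted p = 0.425). The other 4 members overlapped, with differences of 0.07 for Homer1, -0.06 for Arc, -0.06 for Plk3 and 0.06 for Homer3.

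The response to bicuculline under MM401 minus that under DMSO was not called for any member. At 4 h 0 members were called (0 at an unadjusted p under 0.05 and 0 by DESeq2), where 0.0% of all genes were called by edgeR, against 2552 genes at an unadjusted p under 0.05 and 436 genes by DESeq2. For Homer1 the difference of responses was -0.31, with an interval of -0.71 to 0.09 (edgeR adjusted p = 0.436), and for Plk3 it was 0.39, with an interval of -0.10 to 0.87 (edgeR adjusted p = 0.427). For Plk2 it was 0.22 with an interval of -0.02 to 0.46, for Homer2 -0.16 with -0.33 to 0.02, for Arc 0.11 with -0.40 to 0.61 and for Homer3 0.09 with -0.34 to 0.52. The medians were 0.10 for the members and 0.03 for all genes.
At 1 h the reference of either response was the 4 h water group, so this test shares its water libraries with the one at 4 h. Again 0 members were called (0 unadjusted and 0 by DESeq2), where 0.0% of all genes were called by edgeR, against 1326 genes at an unadjusted p under 0.05 and 5 genes by DESeq2. The difference was 0.43 for Plk3, with an interval of -0.05 to 0.90 (edgeR adjusted p = 0.673), and 0.18 for Homer1, with an interval of -0.22 to 0.58. It was 0.13 for Arc (-0.37 to 0.63), 0.13 for Plk2 (-0.11 to 0.37), -0.05 for Homer2 (-0.22 to 0.12) and -0.08 for Homer3 (-0.52 to 0.35), with a median of 0.13 for the members and 0.02 for all genes.

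**Figure D4:**
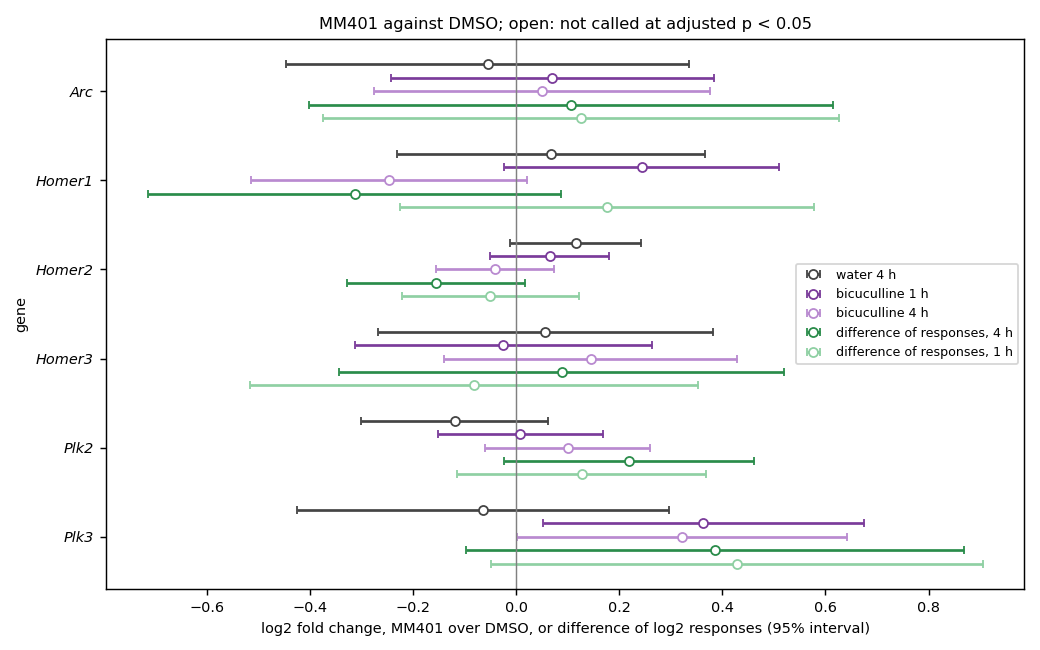
Log2 difference between MM401 and DMSO for each gene in water (4 h), with 1 h of bicuculline and with 4 h of bicuculline, and difference of the log2 bicuculline responses at both times (horizontal axis, with 95% intervals). All points are open because no member was called. The Plk3 intervals at 1 h and 4 h of bicuculline lie just above 0, and every other interval includes 0.

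Unstimulated levels of the members were also compared between 4 h and 1 h of water under MM401. By edgeR 0 of the 6 were called, 0 at an unadjusted p under 0.05 and 0 by DESeq2, where 0.867% of all genes were called by edgeR, 1699 genes had an unadjusted p under 0.05 and DESeq2 called 275. The log2 differences ran from -0.07 for Homer3 (interval -0.39 to 0.26) to 0.18 for Homer1 (interval -0.11 to 0.48), with a median of -0.02 for the members and -0.01 for all genes. Homer1 was at 468 and 524 CPM at 4 h and at 407 to 464 CPM at 1 h, which did not overlap.

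Over the 7 groups, Arc was highest in MM401 and DMSO at 1 h of bicuculline, whose ranges overlapped, then in both at 4 h, which overlapped too, and lowest in the 3 water groups, which overlapped one another in turn. Homer1 had the same first pair, then DMSO at 4 h, MM401 at 4 h and the water groups. Plk2 had all 4 bicuculline groups in an overlapping run above the water groups, with MM401 at 4 h, at 253 ± 6.88 CPM, next to DMSO at 1 h. The order of Plk3 was led by MM401 at 1 h of bicuculline, above the next group without overlap, and its other 6 groups overlapped their neighbours. Homer2 was lowest in the 2 groups with 4 h of bicuculline, and for Homer3 all neighbours overlapped.

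Genes with the most similar profile of group means were ranked by Pearson's r of log2 CPM over the 7 groups among 12212 genes. These groups share libraries, depth and treatments with each member, and r is given as a description. For Arc they were Bmp2 (r = 0.998), Dnajb1 (0.997) and Btg2 (0.997), and for Homer1 Tpm3 (0.998), Dstn (0.998) and Cwc25 (0.996). For Plk2 they were Ywhag, Stmn4 and Spty2d1 (0.998 each). The likest genes to Homer2 were Kcnab2 (0.996), Ank1 (0.996) and Eqtn (0.992), to Homer3 Nod2 (0.979), Itgam (0.970) and Micall1 (0.969), and to Plk3 Armcx1 (0.959), Bcan (0.944) and Nkrf (0.928). Btg2, for instance, went from 23.2 CPM in DMSO water to 187 CPM at 1 h and 46.6 CPM at 4 h of bicuculline, and Stmn4 from 92.3 CPM to 236 and 202 CPM.

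The partners of these proteins were read from a list of 22 genes, of which 21 were tested and Plk5 was not. They comprised other Polo-like kinases, ligands and partners of Homer, partners and cargo of Arc, and substrates and partners of Plk2 or Plk3. In DMSO, 3 of 21 were called higher and 2 lower at 1 h of bicuculline, and 6 higher and 3 lower at 4 h, with medians of 0.06 and -0.01. Under MM401, 4 were higher and 1 lower at 1 h, and 3 higher and 8 lower at 4 h, with medians of 0.06 and -0.15. For all genes these medians were -0.04, -0.02, 0.00 and 0.02, beside the background shares given above. The partners named below are at most 4 called genes of each comparison, so that a gene named in one comparison can also be called in another. Plk1 and Plk4, kinases of the cell cycle, were called in no comparison.

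Among the substrates and partners of Plk, Rapgef2, an exchange factor for Rap, rose by 0.54 ± 0.07 at 1 h in DMSO (edgeR adjusted p = 3.04e-06), by 0.49 ± 0.07 at 4 h (6.94e-06) and by 0.69 ± 0.07 at 1 h under MM401 (9.44e-08). It was called higher at 4 h under MM401 too, at 0.33 ± 0.08 (edgeR adjusted p = 0.00211), a value likewise outside the rule for named partners. Rasgrf1, an exchange factor for Ras, was higher by 0.46 ± 0.10 at 1 h in DMSO (edgeR adjusted p = 0.000619), and lower at 4 h under MM401, at -0.55 ± 0.11 (0.000343). At 1 h under MM401, where the water libraries are of the same time, its log2 change was -0.05 ± 0.10 and was not called (edgeR adjusted p = 0.716), a value outside the rule for named partners. Also outside that rule, its change at 4 h in DMSO was -0.18 ± 0.10 and was not called (edgeR adjusted p = 0.130). In water at 4 h Rasgrf1 had a mean of 88.0 CPM under MM401 and 68.2 CPM in DMSO, a difference not called (edgeR adjusted p = 0.173). From 1 h to 4 h of bicuculline it changed by -0.65 ± 0.10 in DMSO (edgeR adjusted p = 2.75e-05) and by -0.70 ± 0.10 under MM401 (1.24e-05).

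Sipa1l1, the Plk2 substrate SPAR, was higher at 1 h by 0.26 ± 0.09 in DMSO (edgeR adjusted p = 0.0288) and by 0.29 ± 0.09 under MM401 (0.0184), and lower at 4 h than at 1 h under MM401, at -0.59 ± 0.09 (4.82e-05). Against water at 4 h under MM401 it was called lower, at -0.35 ± 0.11 (edgeR adjusted p = 0.0101), a value outside the rule for named partners, whose call was lost with all 21 libraries (-0.22) and without MM401 water 4 h library 2 (-0.36). In DMSO it was lower at 4 h than at 1 h as well, at -0.28 ± 0.09 (edgeR adjusted p = 0.0274), a value outside the rule for named partners, whose call was lost with all 21 libraries (-0.32), without DMSO bicuculline 1 h library 2 or 3 and without DMSO bicuculline 4 h library 1 or 2 (-0.28 to -0.25). Its 1 h calls were lost in both pretreatments with plain library totals (0.08 and 0.07) and with all 21 libraries. The DMSO call was also lost with only the groups compared and without bicuculline 1 h library 2 or 3 or water 4 h library 2 or 3, and the MM401 call without bicuculline 1 h library 1 or 2 or water 1 h library 3. Cdk5, a neuronal kinase, was lower at 4 h in DMSO, at -0.53 ± 0.20 (edgeR adjusted p = 0.0321), a call lost without DMSO bicuculline 4 h library 1 or 3 or DMSO water 4 h library 2.

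Among Homer partners, the scaffold gene Shank3 was lower under MM401 at 1 h, at -0.36 ± 0.08 (edgeR adjusted p = 0.00178), and at 4 h, at -0.65 ± 0.09 (8.42e-06). Shank3 was also called lower in DMSO, at -0.23 ± 0.08 at 1 h (edgeR adjusted p = 0.0302) and -0.35 ± 0.08 at 4 h (0.00163), values outside the rule for named partners and added after they were seen. The 1 h call in DMSO was lost with RLE size factors (-0.19), DESeq2 (-0.19), all 21 libraries (-0.21) and only the groups compared (-0.21), without any one of the DMSO bicuculline 1 h libraries (-0.24 to -0.20) and without DMSO water 4 h library 1 (-0.11). Shank1 was lower at 4 h under MM401, at -0.50 ± 0.14 (edgeR adjusted p = 0.00713), a call lost without MM401 water 4 h library 1. At 4 h in DMSO it was at -0.13 ± 0.12 and not called (edgeR adjusted p = 0.427), a value outside the rule for named partners. The Shank1 means in water at 4 h were 86.5 CPM under MM401 and 65.6 CPM in DMSO, a difference not called (edgeR adjusted p = 0.247). After 4 h of bicuculline they were 61.3 and 59.9 CPM. Among the partners and cargo of Arc, the endophilin gene Sh3gl1 was lower at 1 h in DMSO, at -0.38 ± 0.10 (edgeR adjusted p = 0.00256). Outside the rule for named partners, it was also called lower at 4 h in DMSO, at -0.35 ± 0.09 (edgeR adjusted p = 0.00360). Under MM401 Sh3gl1 was not called, at -0.18 ± 0.10 at 1 h (edgeR adjusted p = 0.152) and -0.15 ± 0.11 at 4 h (0.282). The AMPA receptor gene Gria2 was higher at 4 h in DMSO, at 0.47 ± 0.09 (edgeR adjusted p = 0.000199), at 1 h under MM401, at 0.28 ± 0.09 (0.0176), and at 4 h against 1 h in DMSO, at 0.37 ± 0.09 (0.00304). It was called higher at 4 h under MM401 too, at 0.26 ± 0.10 (edgeR adjusted p = 0.0422), a value outside the rule for named partners. Gria1 was lower at 4 h than at 1 h under MM401, at -0.48 ± 0.10 (edgeR adjusted p = 0.000701). With all 21 libraries the calls of Sh3gl1, Gria1 and Gria2 that fall under the rule for named partners were lost. For the calls of Sh3gl1 and Gria2 outside that rule, values under the alternatives are not given here. The Gria2 call at 1 h under MM401 was also lost with plain library totals (0.07) and without MM401 bicuculline 1 h library 2 or MM401 water 1 h library 2 or 3.

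Between 4 h and 1 h of bicuculline 5 partners were called higher and 3 lower in DMSO, and 1 higher and 7 lower under MM401. Over all genes 19.1% were higher and 15.2% lower in DMSO, and 17.5% and 16.0% under MM401, and the medians of the partners were -0.04 and -0.14. In MM401 against DMSO, in water over time and in the tests of the difference between responses, 0 of the 21 were called by edgeR. At an unadjusted p under 0.05 there were 6 in water at 4 h, 0 with 1 h and 4 with 4 h of bicuculline, 3 in water over time, 7 in the difference of responses at 4 h and 1 in that at 1 h. Of all genes 12.9%, 3.18%, 7.72%, 10%, 15% and 7.82% were under that p, in the same order. DESeq2 called 0 in each of these except 2 in the difference of responses at 4 h, which were Dnm3, at -0.31 ± 0.11 (DESeq2 adjusted p = 0.0445), and Grm5, at -0.54 ± 0.20 (0.0483).

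**Figure D5:**
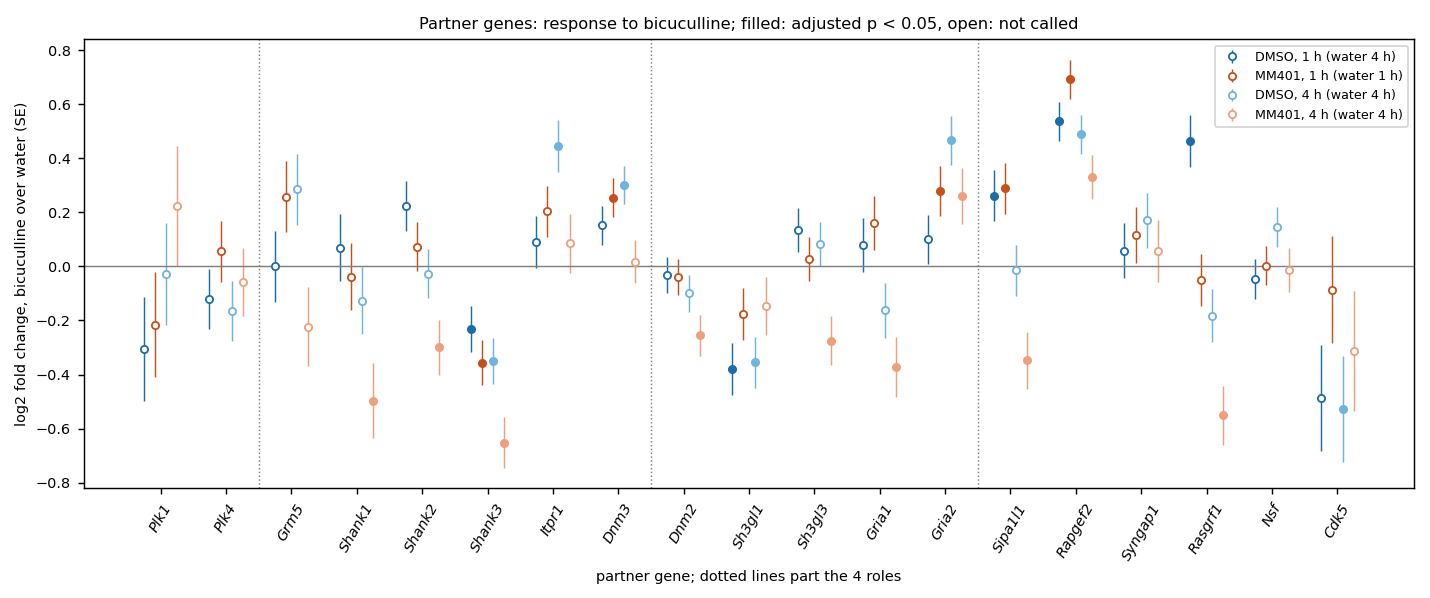
Log2 fold change by bicuculline over water for the partner genes reported by name (horizontal axis), with SE (vertical bars), at 1 h and 4 h in DMSO and MM401. Filled points were called at an adjusted p under 0.05 and dotted lines part the 4 roles. Rapgef2 is above 0 in all 4 comparisons, and Shank3 is below 0 in all 4.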

How the data were processed

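BrU-seq gave 21 libraries of nascent RNA from mouse cortical cultures, in 7 groups of 3 taken from the labels. The authors deposited raw read counts per gene, made with featureCounts on mm10 over whole gene spans per the file headers. The submitters' processing notes also name Bowtie2, DESeq2, UMI-tools and deepTools, without their roles. The aligner's settings, the use of strand and the handling of reads with several positions are not given in the sources used here. Genes with several listed positions (412) were each treated as a single gene. The table's 20 deeply sequenced libraries held 49886348 to 87939384 counts. No other column of sample values was present.

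The analysis used edgeR 4.0.16 and limma 3.58.1 in R 4.3.3. Genes were kept by filterByExpr (minimum count 10, minimum total 15), libraries were scaled by TMM, and 1 robust quasi-likelihood model with a mean per group was fitted to the 20 libraries. A gene was called at a Benjamini-Hochberg adjusted p under 0.05 over all genes of a comparison. Tests were two-sided and 12 comparisons were made. Each fold change is given as log2 with its standard error (SE), and 95% intervals come from the same model. CPM are counts per 1000000 counts of the TMM-scaled total. Ratios of paralogues used counts plus 0.5, and the exact permutation test was adjusted over 6 tests. The scripts were tested on simulated data.

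The members, partner list, markers and named-gene rule were chosen with earlier results of these data known. By that rule all 6 members were named, up to 4 called partners with the largest change in each comparison, and for each member the 3 genes with the highest Pearson's r over group means, among named genes with a mean of at least 2 CPM in their highest group. Some listed partners enter the counts and medians of the list but are not reported here by name. Promoter windows came from RefSeq (GRCm38.p6).

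The replicate numbers come from the labels, which leave their meaning unstated. In the sample titles the libraries of each replicate number form a consecutive run that holds every group. In 7 pairs of compared groups with 3 shared numbers, every same-numbered pair deviated together (correlation over 0.1) in 2: bicuculline at 4 h against 1 h under MM401 (0.278, 0.157 and 0.125) and MM401 against DMSO at 4 h of bicuculline (0.238, 0.269 and 0.302). Of all 27 same-numbered correlations between compared groups, 17 were over 0.1, and they ranged from -0.412 to 0.441. Alternatives were RLE size factors, plain library totals, no filter, all 21 libraries, only the groups compared, the replicate number as a block, DESeq2 1.42.0 and leaving out each library in turn.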

Additional observations from a re-analysis of the deposited data

How the results depend on the processing

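Of 974 values of members under an alternative, 283 belonged to called results, of which 266 remained called with the same sign and 0 changed sign. Of the other 691, 8 became called and 51 changed sign without being called. With plain library totals Homer2 at 1 h of bicuculline in DMSO turned from 0.01 to -0.18. The number of members called at 4 h against 1 h of bicuculline in DMSO was 4, and 2 to 4 when 1 library was left out. With the replicate number as a block, Homer1 at 4 h of bicuculline under MM401 was called (0.36), and the block changed no other call of a member. A lone MM401 water library at 4 h was assumed to vary like the other groups. In the library left out, 68 counts fell on Homer1, 26 on Homer2 and 2 on Plk2. In CPM of plain library totals Homer1 was at 215 there (Poisson 95% interval 167 to 272), below the 448 to 564 of the other water libraries. Plk2 was at 6.31 (0.765 to 22.8), below 87.3 to 115. For Homer2, at 82.1, the interval of 53.6 to 120 included the other libraries, at 55.4 to 63.9. Arc, Homer3 and Plk3 had 0 counts, so the library says little of those genes. Why Homer1 and Plk2 were low in it was not tested. Homer3 and Plk3 had the fewest counts of the members, 117 to 270 a library. The cause of these changes was not tested.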
